A study of Mus musculus with 4 samples.

Results

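Solute carriers are membrane proteins that move sugars, amino acids, ions, metals, nucleotides and other small molecules across the cell surface and the membranes of organelles. Their genes carry symbols made of Slc, a family number, a letter and a member number. The genes described here were chosen by measured values: a symbol that begins with Slc and a digit, a completed test by the authors, and an FPKM (sequenced fragments, normalised for the length of the transcript and the size of the library) of at least 1 in Srf KO or WT neutrophils. Of 357 such symbols in the gene table, 202 were tested by the authors and 155 of these reached 1 FPKM. Slc16a14 was left out by the rule, which leaves 154 genes of 43 families, out of 23284 genes in all. A group of 5 symbols names no carrier: Slc9a3r1, Slc9a3r2, Slc4a1ap and Slc7a6os encode partner or neighbouring-locus proteins, and Slc2a4rg-ps is annotated as a transcribed unitary pseudogene. The remaining 149 are carrier genes.

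RNA was sequenced from mouse bone marrow neutrophils sorted as mature cells that were high for Gr1, for the 7/4 antigen and for side scatter. The genotype was labelled Srf KO for 2 samples and WT for 2 samples, 4 in all. How the Srf allele was deleted, with which promoter or Cre, and the age of the mice are not given in the sources used here, and the labels do not say whether the samples of a genotype came from separate animals. The authors' deposited table gives 1 pooled FPKM value per genotype, so each gene has 1 Srf KO value and 1 WT value, and neither the depth nor the spread between samples is known. Log2 folds are of Srf KO over WT. A value after ± is a standard error worked out from the fold and the statistic of the authors' deposited table. A gene is called where the authors' adjusted p is at most 0.05. The verbs rose and fell are used for called genes alone.

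Carriers work by alternating access: a binding site opens to one side of the membrane, takes up its substrate, changes shape and releases the substrate on the other side. Mature neutrophils rely mainly on glycolysis, so glucose uptake by the GLUT family (Slc2) and lactate release by the monocarboxylate family (Slc16) are central to their energy supply. Carriers in the membranes of their lysosomes and phagosomes move metals, peptides and nucleosides, and NRAMP1, the product of Slc11a1, draws metals out of the phagosome and limits the growth of engulfed microbes. SRF, the transcription factor deleted here, binds CArG boxes and is best known for driving genes of the actin cytoskeleton and the immediate-early response.

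The Srf transcript itself stood at 0.439 FPKM in Srf KO and 13.7 FPKM in WT neutrophils, a log2 fold of -4.97 ± 0.27 by the authors' deposited table. Slc16a14, the carrier gene that the rule leaves out, had 0.101 FPKM in Srf KO and 2.06 FPKM in WT neutrophils. Of the 13 neutrophil marker genes listed for this comparison, 12 were in the table. Camp, Ltf, Ngp, S100a8 and S100a9 were not tested and are listed at 0 in at least 1 genotype. Their status is HIDATA, which marks loci with too many fragments to process, so the listed 0 is not a measured absence. The other 7 summed to 20100 FPKM in Srf KO and 31100 FPKM in WT neutrophils, with 5 called lower and 0 higher. The values are of bulk samples, in which fewer cells of a type and less RNA per cell cannot be told apart. Markers of other cell types were higher in Srf KO samples: megakaryocyte and platelet markers summed to 47.1 FPKM in Srf KO and 6.42 FPKM in WT neutrophils (6 of 8 called higher), while T and NK markers summed to 108 FPKM in Srf KO and 46.4 FPKM in WT neutrophils (9 of 10). Mast cell, basophil and eosinophil markers summed to 180 FPKM in Srf KO and 83.8 FPKM in WT neutrophils (8 of 8), and B cell markers to 129 FPKM in Srf KO and 90.3 FPKM in WT neutrophils (2 of 6). Of the megakaryocyte and platelet sums, Pf4 alone made up 39.2 FPKM in Srf KO and 2.68 FPKM in WT neutrophils. Gp6 was at 0 in WT neutrophils, and no other marker of these lists was at 0. The summed values of the macrophage list were 172 FPKM in Srf KO and 182 FPKM in WT neutrophils, with 7 of 10 markers called higher and 3 lower. Their part in the carrier values was not tested.

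The solute carrier genes moved in both directions. Of the 154 genes, 35 fell in Srf KO neutrophils (22.7%), 25 rose (16.2%) and 94 were not called. The same counts over all 10566 tested genes at 1 FPKM or more were 20.6% lower and 17.1% higher, and over all 12634 tested genes 17.8% lower and 17.7% higher. The rule used the values of this same contrast, and nothing is read from the difference between these shares. The median log2 fold of the 154 genes was -0.04, with quartiles at -0.46 and 0.44, beside a median of 0.00 over all tested genes at 1 FPKM or more. With all folds centred on the median of the tested genes, a shift of 0.08, 38 of the 154 genes were called lower and 16 higher. Centring lowers the fold of every gene, and that median takes in genes under 1 FPKM. The shares of all genes called after centring were not counted, and nothing is read from these 2 counts. Summed over the 154 genes, expression was 2297 FPKM in Srf KO and 2931 FPKM in WT neutrophils. The lowest fold was that of Slc44a1 and the highest that of Slc14a1.

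Strongly expressed carriers lay lower in Srf KO neutrophils and weakly expressed carriers slightly higher, and the same held for all genes. Of 62 members at 10 FPKM or more, 23 fell (37.1%) and 7 rose (11.3%), with a median log2 fold of -0.25. Over all genes at that level 28.8% were called lower and 14.8% higher, with a median of -0.15. Of the 92 members from 1 to under 10 FPKM, 12 fell and 18 rose (19.6%), with a median of 0.22. Over all genes at that level 11.7% were called lower and 19.7% higher, with a median of 0.18. Of the 154 genes, 15 fell at least 2-fold, Slc2a4rg-ps among them, and 4 rose at least 2-fold, where 7.21% of all genes at 1 FPKM or more were called and at least 2-fold lower and 5.21% called and at least 2-fold higher.

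**Figure D1:**
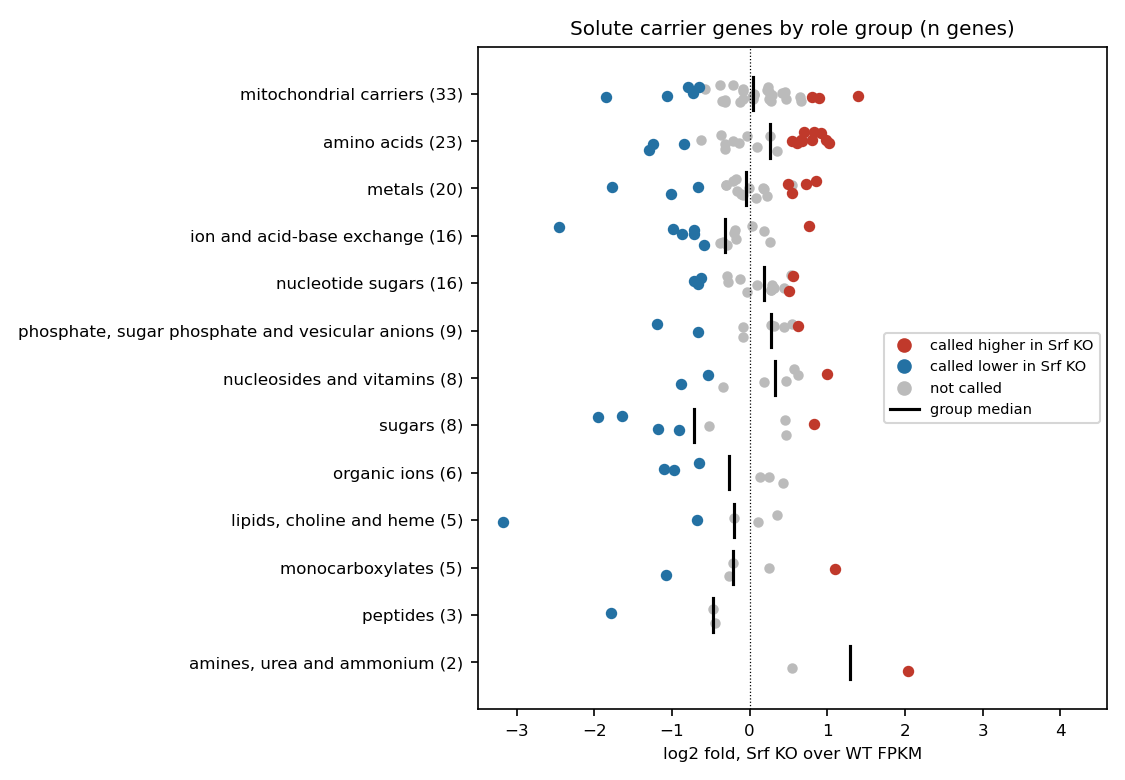
Log2 fold (Srf KO over WT FPKM) of each of the 154 genes in 13 role groups assigned by family number, with the group median as a bar and the calls of the authors' test in colour. The sugar group has the lowest median among groups of more than 3 genes (-0.72). Of the 23 genes of the amino acid group, 10 are called higher, beside 17.1% of all genes at 1 FPKM or more. Both groups hold a symbol that names no carrier.

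**Figure D2:**
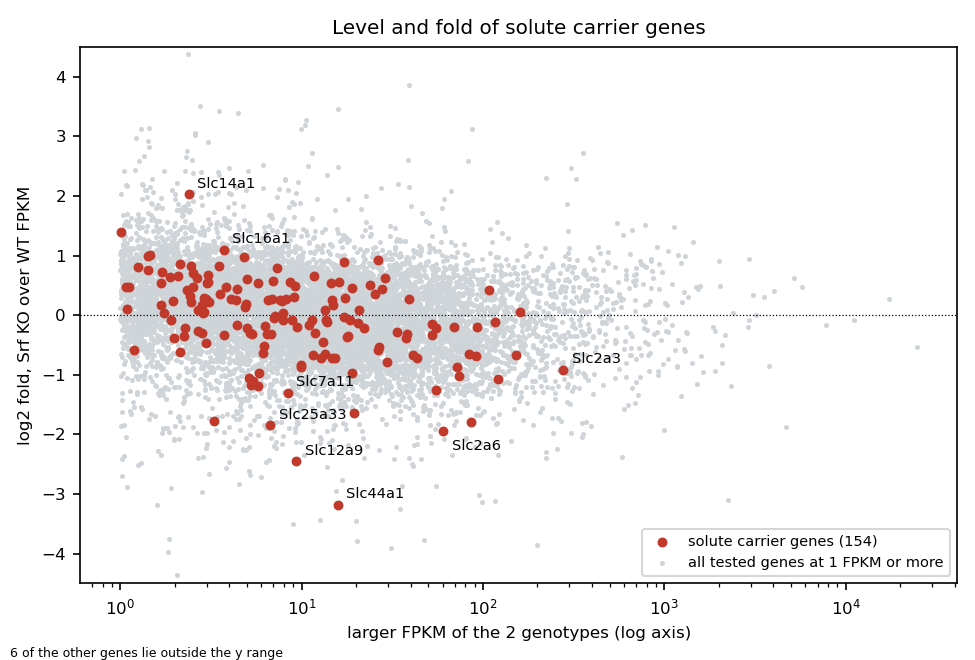
Larger FPKM of the 2 genotypes (log axis) against log2 fold (Srf KO over WT), with the 154 solute carrier genes over all tested genes at 1 FPKM or more, of which 6 lie outside the plotted range. Slc44a1 is the lowest carrier (-3.18) and Slc14a1 the highest (2.04).

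The threshold of 1 FPKM was passed in both genotypes by 144 genes, in Srf KO alone by 8 and in WT alone by 2. Those 10 passed only through the genotype in which they were higher, so their direction was partly fixed by the choice. Slc4a1, Slc14a1, Slc19a1, Slc25a15, Slc25a26 and Slc43a1 are the called genes that passed through Srf KO alone, and Slc39a4 the called gene that passed through WT alone. Of all tested genes under 1 FPKM, 20.7% were called higher and 3.48% lower. Just inside the threshold stood Slc25a26 with 1.01 FPKM in Srf KO and 0.383 FPKM in WT, Slc19a2 with 1.08 FPKM in Srf KO and 0.781 FPKM in WT, and Slc27a3 with 1.09 FPKM in Srf KO and 1.02 FPKM in WT. Just outside stood Slc22a3 with 0.975 FPKM in Srf KO and 0.324 FPKM in WT, Slc12a7 with 0.948 FPKM in Srf KO and 0.561 FPKM in WT, and Slc7a14 with 0.943 FPKM in Srf KO and 0.847 FPKM in WT. Of the 154 genes, 13 overlap another gene of the table, and because the TruSeq RNA v2 kit does not keep the strand, reads of overlapping genes cannot be told apart. Of these, 5 are called, among them Slc15a3, which overlaps Tmem132a, Slc25a26, which overlaps Lrig1, and Slc43a2, which overlaps a microRNA gene.

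The start regions of 4 genes are shown because they belong to the deepest falls (Slc44a1 and Slc12a9), to the largest rise of the monocarboxylate family (Slc16a1) and to the deepest fall among the amino acid carriers (Slc7a11), and because 3 of them hold a searched motif. Each window runs from 250 bases before to 50 bases after the annotated start (RefSeq, GRCm38.p6), is written 5′ to 3′ on the strand of the gene, and has any motif in capitals. Slc44a1 (chr4:53440163-53440462, plus strand) and Slc12a9 (chr5:137333533-137333832, minus strand) had the lowest folds of all 154 genes. Slc16a1 (chr3:104638414-104638713, plus strand) rose, and Slc7a11 (chr3:50443564-50443863, minus strand) fell. The capitals mark CACGTG (an E-box) in Slc12a9 and Slc16a1, and TGATGCAA, with its reverse complement, in Slc7a11.
Slc44a1: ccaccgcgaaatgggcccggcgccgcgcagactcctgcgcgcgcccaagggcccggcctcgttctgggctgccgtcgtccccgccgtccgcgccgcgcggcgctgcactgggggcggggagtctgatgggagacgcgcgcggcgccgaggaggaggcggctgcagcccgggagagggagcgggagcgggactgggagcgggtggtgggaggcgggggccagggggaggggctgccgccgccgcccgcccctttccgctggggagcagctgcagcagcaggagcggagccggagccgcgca
Slc12a9: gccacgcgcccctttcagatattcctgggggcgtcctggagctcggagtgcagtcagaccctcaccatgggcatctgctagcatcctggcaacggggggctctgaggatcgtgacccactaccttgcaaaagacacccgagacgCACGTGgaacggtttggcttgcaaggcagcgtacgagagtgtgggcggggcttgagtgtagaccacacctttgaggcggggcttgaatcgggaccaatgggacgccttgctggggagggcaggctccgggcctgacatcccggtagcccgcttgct
Slc16a1: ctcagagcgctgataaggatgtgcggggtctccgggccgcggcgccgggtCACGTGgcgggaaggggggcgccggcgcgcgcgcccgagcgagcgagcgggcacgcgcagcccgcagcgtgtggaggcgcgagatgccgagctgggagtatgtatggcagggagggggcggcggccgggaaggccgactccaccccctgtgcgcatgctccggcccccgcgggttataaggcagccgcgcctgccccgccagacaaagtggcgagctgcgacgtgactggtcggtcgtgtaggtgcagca
Slc7a11: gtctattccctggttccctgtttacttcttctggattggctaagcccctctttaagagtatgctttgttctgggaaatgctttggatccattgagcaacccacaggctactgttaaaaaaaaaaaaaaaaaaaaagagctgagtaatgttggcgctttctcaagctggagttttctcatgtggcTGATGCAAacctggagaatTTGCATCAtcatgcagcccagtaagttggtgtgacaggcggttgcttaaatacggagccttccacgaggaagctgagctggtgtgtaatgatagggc

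RefSeq windows were matched for 116 of the 154 genes by symbol, and 3 motifs were searched on both strands. The consensus CArG box, the site that SRF binds, was found in 0 of the 116 genes and in 1.81% of all 27025 genes with a window. That says only that these letters are not in these windows. CACGTG, the E-box bound by MYC and TFE family factors, was found in 23 of 116 genes (19.8%), beside 8.09% of all genes. These 23 were spread over the calls: 4 of 24 genes called lower, 4 of 16 called higher and 15 of 76 not called. TGATGCAA, a sequence of the type bound by ATF4 with CEBP factors, was found in Slc7a11, Slc7a7 and Slc50a1, which is 2.59% of the 116 genes, beside 1.03% of all genes. CACGTG and TGATGCAA were chosen after the expression values were seen, and a match is a description of the letters. The 116 genes were chosen by expression and the 27025 were not, so for each motif the shares are of unlike sets. Nothing is read from their difference.

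The genes of the glucose transporters GLUT1, GLUT3 and GLUT6 fell in Srf KO neutrophils. Of the 8 genes of the sugar group, 4 fell, the pseudogene Slc2a4rg-ps among them, and 1 rose. The shares over all genes were 20.6% lower and 17.1% higher at 1 FPKM or more, and 28.8% and 14.8% at 10 FPKM or more. Nothing is read from the difference. The group median was -0.72, the lowest among groups of more than 3 genes. Every member of the GLUT family (Slc2) that was measured at 1 FPKM or more was called. Slc2a3 (chr6:122727809-122742745, minus strand, mm10) encodes GLUT3, a high-affinity glucose transporter, and had the highest WT level of all 154 genes. In Srf KO neutrophils Slc25a5 stood above it. Its level was 147 FPKM in Srf KO and 277 FPKM in WT neutrophils, a log2 fold of -0.91 ± 0.19 by the authors' deposited table. Slc2a1 (chr4:119108745-119137329, plus strand) encodes GLUT1, the widely expressed glucose transporter. It had 6.24 FPKM in Srf KO and 19.5 FPKM in WT neutrophils, a log2 fold of -1.64 ± 0.21 by the authors' deposited table. Slc2a6 (chr2:27021365-27027998, minus strand) encodes GLUT6, which resides on lysosomes in macrophages. It had 15.6 FPKM in Srf KO and 60.4 FPKM in WT neutrophils, and its fold of -1.95 ± 0.19 was the lowest of the group in the authors' deposited table. The other fall was of Slc2a4rg-ps, the pseudogene, with 2.34 FPKM in Srf KO and 5.29 FPKM in WT neutrophils. Slc2a9, which encodes a urate transporter, rose to 3.52 FPKM in Srf KO, against 1.99 FPKM in WT neutrophils (log2 fold 0.83 ± 0.27 in the authors' deposited table). Slc50a1, a sugar exporter of the SWEET family, was not called, at 18.9 FPKM in Srf KO and 13.8 FPKM in WT neutrophils. Neither were Slc5a11, a sodium-coupled inositol transporter, at 2.53 FPKM in Srf KO and 1.82 FPKM in WT neutrophils, nor Slc45a4, at 4.30 FPKM in Srf KO and 6.18 FPKM in WT neutrophils.

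In the monocarboxylate family, the genes of the lactate carriers MCT4 and MCT1 moved in opposite directions at the gene level. The isoform of Slc16a3 with the highest mean FPKM, which the authors did not test, had a log2 fold of 0.27. Slc16a3 (chr11:120948484-120959000, plus strand) encodes MCT4, which exports lactate from glycolytic cells. It fell to 57.9 FPKM in Srf KO, against 121 FPKM in WT neutrophils, a log2 fold of -1.07 ± 0.21 by the authors' deposited table. Slc16a1 encodes MCT1, which carries lactate and pyruvate in both directions and has a higher affinity for lactate. It rose to 3.74 FPKM in Srf KO, against 1.74 FPKM in WT neutrophils, a log2 fold of 1.10 ± 0.24 by the authors' deposited table. Even so, the FPKM of Slc16a3 remained above that of Slc16a1 in both genotypes. Slc16a6, Slc16a7 and Slc16a10 were not called, with log2 folds of -0.21, -0.27 and 0.25. Bsg, which encodes the chaperone basigin that brings MCT1 and MCT4 to the surface, was not called, at 67.1 FPKM in Srf KO and 61.9 FPKM in WT neutrophils, with a standard error of 1.95 around its log2 fold of 0.11 by the authors' deposited table. Emb, which encodes the related chaperone embigin, fell to 122 FPKM in Srf KO, against 222 FPKM in WT neutrophils.

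Among the 23 genes of the amino acid group, 10 rose (43.5%), the non-carrier Slc7a6os among them, and 3 fell. The share called higher was 17.1% over all genes at 1 FPKM or more, and nothing is read from the difference. At an adjusted p of at most 0.01, 5 of the 10 rises were left, and with a 2-fold minimum 1. The group median was 0.26. The rises included carriers of large neutral and cationic amino acids. Slc7a5, which encodes LAT1, the exchanger of leucine and other large neutral amino acids, rose to 4.80 FPKM in Srf KO, against 2.44 FPKM in WT neutrophils (log2 fold 0.98 ± 0.23 in the authors' deposited table). Its heavy-chain partner Slc3a2, which carries LAT1 and several relatives to the surface, was not called, at 16.7 FPKM in Srf KO and 17.1 FPKM in WT neutrophils. Slc43a1, which encodes the leucine carrier LAT3, rose to 1.46 FPKM in Srf KO, against 0.722 FPKM in WT neutrophils, a log2 fold of 1.02 ± 0.41 by the authors' deposited table. Its neighbour Slc43a3, 73.1 kb away and known for carrying purine nucleobases, rose to 26.3 FPKM in Srf KO, against 13.9 FPKM in WT neutrophils (0.92 ± 0.19 in the authors' deposited table). Slc7a1, the arginine and lysine carrier CAT1, rose to 3.04 FPKM in Srf KO, against 1.90 FPKM in WT. Slc7a6 and Slc7a8, which pair with the product of Slc3a2 as LAT1 does, rose with log2 folds of 0.83 ± 0.26 and 0.70 ± 0.25 in the authors' deposited table. The glutamine carriers Slc38a1 (SNAT1) and Slc1a5 (ASCT2) rose too, with log2 folds of 0.80 ± 0.20 and 0.55 ± 0.20 in the authors' deposited table. Slc6a12, a betaine and GABA carrier, and Slc7a6os, a non-carrier gene that lies 1.73 kb from Slc7a6, complete the rises at 0.61 and 0.66.

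The 3 falls among the amino acid carriers were of a cystine, a taurine and a neutral amino acid carrier. Slc7a11 encodes xCT, which imports cystine for glutathione synthesis in exchange for glutamate. It fell to 3.42 FPKM in Srf KO, against 8.41 FPKM in WT neutrophils, a log2 fold of -1.30 ± 0.19 by the authors' deposited table. Slc6a6 encodes TauT, the importer of taurine, which neutrophils hold in high amounts and use to trap hypochlorous acid. It had the highest WT level of the group and fell to 23.2 FPKM in Srf KO, against 55.2 FPKM in WT neutrophils, a log2 fold of -1.25 ± 0.18 by the authors' deposited table. Slc43a2, which encodes LAT4, fell to 5.57 FPKM in Srf KO, against 9.96 FPKM in WT. It thus differed in direction from both other members of its family. Slc38a2 (SNAT2) had the highest Srf KO level of the group and was not called, at 47.4 FPKM in Srf KO and 52.3 FPKM in WT neutrophils. Slc7a7, Slc38a9, which encodes a lysosomal arginine sensor, and the lysosomal carrier gene Slc36a1 were not called either, with log2 folds of 0.26, 0.09 and -0.32.

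Of the lysosomal and endosomal peptide carriers, Slc15a3 fell sharply. It encodes PHT2, which moves histidine and small peptides out of endolysosomes, and stood at 24.8 FPKM in Srf KO and 85.8 FPKM in WT neutrophils, a log2 fold of -1.79 ± 0.19 by the authors' deposited table. Slc15a4, which encodes the related carrier PHT1, was not called, at 9.72 FPKM in Srf KO and 13.2 FPKM in WT neutrophils. Slc15a2, which encodes a peptide carrier of the cell surface, had 2.16 FPKM in Srf KO and 2.99 FPKM in WT neutrophils and was not called. After centring, which lowers the fold of every gene, 2 of the 3 peptide carriers were called lower, and nothing is read from this count.

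Metal carriers moved in both directions, with a median of -0.05. Of 20 genes 3 fell and 4 rose, beside 20.6% lower and 17.1% higher over all genes at 1 FPKM or more. The falls included genes of iron and manganese transport at the phagosome and the cell surface. Slc11a1, which encodes NRAMP1 of the phagosome membrane, fell to 36.7 FPKM in Srf KO, against 74.2 FPKM in WT neutrophils (log2 fold -1.01 ± 0.18 in the authors' deposited table). Slc40a1, which encodes the iron exporter ferroportin, fell to 96.2 FPKM in Srf KO, against 153 FPKM in WT neutrophils (-0.67 ± 0.18 in the authors' deposited table). Slc39a4, which encodes the zinc importer ZIP4, fell to 0.967 FPKM in Srf KO, against 3.30 FPKM in WT neutrophils (-1.77 ± 0.29 in the authors' deposited table). Slc11a2, which encodes DMT1, the iron importer of the same family as NRAMP1, rose to 2.13 FPKM in Srf KO, against 1.17 FPKM in WT neutrophils (0.86 ± 0.34 in the authors' deposited table). The rises of the zinc carriers Slc39a10 (ZIP10) and Slc30a5 (ZnT5) were 0.73 ± 0.26 and 0.55 ± 0.20 in the authors' deposited table, and that of the copper importer Slc31a1 (CTR1) was 0.49 ± 0.20. Those 4 rises were near the threshold: the adjusted p in the authors' deposited table was 0.0318 for Slc11a2, 0.0173 for Slc39a10, 0.0212 for Slc30a5 and 0.0452 for Slc31a1, and after centring 1 metal carrier was called higher. Slc31a2, the neighbour of Slc31a1, was expressed far more strongly and was not called, at 108 FPKM in Srf KO and 117 FPKM in WT neutrophils.

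Of the 16 genes of the ion and acid-base exchange group, 6 fell (37.5%), the scaffold gene Slc9a3r2 among them. A further 1 rose and 9 were not called, with a group median of -0.31. Beside these stand 20.6% lower and 17.1% higher over all genes at 1 FPKM or more, and nothing is read from the difference. Slc12a9, of the cation-chloride cotransporter family, fell to 1.72 FPKM in Srf KO, against 9.38 FPKM in WT neutrophils, a log2 fold of -2.45 ± 0.24 by the authors' deposited table. Slc4a2, which encodes the chloride-bicarbonate exchanger AE2, fell to 9.30 FPKM in Srf KO, against 15.4 FPKM in WT neutrophils (-0.72 ± 0.19 in the authors' deposited table). The anion carrier gene Slc26a11 fell to 2.95 FPKM in Srf KO, against 5.80 FPKM in WT neutrophils, and Slc9a3r2, a scaffold gene and not a carrier, to 17.7 FPKM in Srf KO, against 26.5 FPKM in WT neutrophils. The organelle exchangers Slc9a8 and Slc9a9 were not called, with log2 folds of -0.29 and -0.34. Slc9a3r1, the most strongly expressed gene of the group and also a scaffold gene, was not called, at 81.7 FPKM in Srf KO and 93.2 FPKM in WT neutrophils.

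The single rise among the exchangers was of Slc4a1, which encodes band 3, the anion exchanger of red cells, at 1.42 FPKM in Srf KO and 0.838 FPKM in WT neutrophils (log2 fold 0.76 ± 0.28 in the authors' deposited table). The highest fold of all 154 genes was of Slc14a1, which encodes the urea transporter of red cells, at 2.40 FPKM in Srf KO and 0.584 FPKM in WT neutrophils (2.04 ± 0.36 in the authors' deposited table). Both genes passed the FPKM minimum through Srf KO alone, and with a pseudocount of 1 the log2 fold of Slc14a1 was 1.10 and that of Slc4a1 0.40. Neither start site group of Slc14a1 was called. The first had 1.27 FPKM in Srf KO and 0.584 FPKM in WT neutrophils. The second had 1.13 FPKM in Srf KO and 0.000106 FPKM in WT neutrophils. Its isoform NM_028122 was called higher, at 1.05 FPKM in Srf KO and 0.413 FPKM in WT neutrophils. Beside Slc4a1 and Slc14a1 stand the erythroid markers, which summed to 210 FPKM in Srf KO and 146 FPKM in WT neutrophils, with 7 of 9 called higher. None of these markers was at 0. The part of red cell precursors in these rises was not tested. Slc18a2, the second gene of the amine, urea and ammonium group, encodes the vesicular monoamine transporter and was not called, at 3.06 FPKM in Srf KO and 2.09 FPKM in WT neutrophils.

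Mitochondrial carriers, the largest family with 33 genes, had 5 falls and 3 rises, and 25 were not called, with a median of 0.04. Over all genes at 1 FPKM or more, 20.6% were called lower and 17.1% higher, and 6580 of 10566 were not called. The shares of the mitochondrial carriers were 15.2% and 9.09%, and nothing is read from the difference. The most strongly expressed, Slc25a5 (the ADP/ATP carrier ANT2) and Slc25a3 (the phosphate carrier), were not called. Slc25a5 had 160 FPKM in Srf KO and 153 FPKM in WT neutrophils, and Slc25a3 had 108 FPKM in Srf KO and 80.9 FPKM in WT neutrophils. Slc25a33, which encodes a pyrimidine nucleotide carrier, fell to 1.87 FPKM in Srf KO, against 6.74 FPKM in WT neutrophils, a log2 fold of -1.85 ± 0.27 by the authors' deposited table. Slc25a36, another pyrimidine nucleotide carrier, was not called at -0.32 ± 0.22 in the authors' deposited table. Slc25a30 fell to 2.46 FPKM in Srf KO, against 5.11 FPKM in WT neutrophils (-1.06 ± 0.27 in the authors' deposited table). Carriers of both kinds that make up the malate-aspartate shuttle were among the falls. Slc25a12, the aspartate-glutamate carrier, had 17.1 FPKM in Srf KO and 29.5 FPKM in WT neutrophils, and Slc25a11, the oxoglutarate-malate carrier, had 53.1 FPKM in Srf KO and 83.5 FPKM in WT neutrophils. Slc25a13, the second aspartate-glutamate carrier, was not called at 1.95 FPKM in Srf KO and 1.64 FPKM in WT neutrophils. Slc25a44, a carrier of branched-chain amino acids, completed the falls at -0.73 ± 0.24 in the authors' deposited table.

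The rises among the mitochondrial carriers were of an ADP/ATP, an ornithine and an S-adenosylmethionine carrier. Slc25a4, the ADP/ATP carrier ANT1, rose to 17.2 FPKM in Srf KO, against 9.27 FPKM in WT neutrophils (log2 fold 0.89 ± 0.24 in the authors' deposited table). Slc25a15, the ornithine carrier, rose to 1.25 FPKM in Srf KO, against 0.719 FPKM in WT neutrophils. Slc25a26, the carrier of S-adenosylmethionine, had a log2 fold of 1.40 ± 0.42 by the authors' deposited table, near the level at which the rule admits a gene, and of 0.54 with a pseudocount of 1. The mitoferrin genes Slc25a37 and Slc25a28, which import iron, were not called, with log2 folds of -0.38 and -0.13.

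Nucleotide sugar carriers supply the Golgi and endoplasmic reticulum with building blocks for glycans. The group of that name was assigned by family number (Slc35), not by the substrate of each gene. It had 3 falls and 2 rises among 16 genes. None of these was 2-fold. The shares over all genes at 1 FPKM or more were 20.6% lower and 17.1% higher. Slc35e1, with the highest WT level of the group, fell to 26.3 FPKM in Srf KO, against 43.1 FPKM in WT neutrophils (log2 fold -0.71 ± 0.18 in the authors' deposited table). Slc35a5 and Slc35f5 fell with log2 folds of -0.67 and -0.63. Slc35b4, a carrier of UDP-xylose and UDP-N-acetylglucosamine, rose to 8.64 FPKM in Srf KO, against 5.86 FPKM in WT neutrophils. Slc35b1 rose to 23.9 FPKM in Srf KO, against 16.8 FPKM in WT neutrophils, with an adjusted p of 0.0489 in the authors' deposited table. After centring, none of the 16 was called higher. Slc35c1 encodes the Golgi GDP-fucose carrier, which in humans is needed for the fucosylated selectin ligands by which neutrophils roll on vessel walls. It was not called, at 27.9 FPKM in Srf KO and 20.5 FPKM in WT neutrophils (0.44 ± 0.19 and adjusted p = 0.0541 in the authors' deposited table). Slc35a1, the CMP-sialic acid carrier, was not called either, at 5.76 FPKM in Srf KO and 3.97 FPKM in WT neutrophils.

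The smaller groups held single large falls. In the choline, lipid and heme group, Slc44a1 (chr4:53440413-53622478, plus strand, mm10), which encodes the choline carrier CTL1, fell to 1.75 FPKM in Srf KO, against 15.8 FPKM in WT neutrophils. Its log2 fold of -3.18 ± 0.33 by the authors' deposited table is 9.05-fold lower and the lowest of the 154 genes. Slc44a2, its relative and a known neutrophil surface protein, was not called, at 60.4 FPKM in Srf KO and 69.2 FPKM in WT neutrophils. Slc27a4, which encodes the fatty acid transport protein FATP4, fell to 57.4 FPKM in Srf KO, against 92.0 FPKM in WT neutrophils, and Slc48a1, a heme carrier, was not called at 0.35. Among organic ion carriers, 3 of 6 fell, beside 20.6% of all genes at 1 FPKM or more, and nothing is read from the difference. Slc22a15 had 9.62 FPKM in Srf KO and 18.9 FPKM in WT neutrophils, and Slc22a20 had 2.50 FPKM in Srf KO and 5.37 FPKM in WT neutrophils. The remaining fall, of Slc10a3, had an adjusted p of 0.0486 in the authors' deposited table, and its isoform with the highest mean FPKM was not called, at -0.17. The other Slc10a3 isoform fell to 3.08 FPKM in Srf KO, against 7.22 FPKM in WT neutrophils. The carnitine and ergothioneine carriers Slc22a5 and Slc22a4 were not called, with log2 folds of 0.43 and 0.25.

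Phosphate, sugar phosphate and vesicular anion carriers had 2 falls and 1 rise among 9 genes. The shares over all genes at 1 FPKM or more were 20.6% lower and 17.1% higher. Both falls among the 9 genes were in the sugar phosphate family. Slc37a2 had 2.51 FPKM in Srf KO and 5.72 FPKM in WT neutrophils, a log2 fold of -1.19 ± 0.23 by the authors' deposited table, and Slc37a3 had 7.35 FPKM in Srf KO and 11.6 FPKM in WT neutrophils. Slc37a4, the glucose 6-phosphate carrier of the endoplasmic reticulum whose loss causes neutropenia in humans, was not called, at 6.83 FPKM in Srf KO and 5.65 FPKM in WT neutrophils. Slc17a9, which loads ATP into vesicles, rose to 28.8 FPKM in Srf KO, against 18.8 FPKM in WT neutrophils (0.62 ± 0.19 in the authors' deposited table). In the nucleoside and vitamin group, 2 of 8 genes fell and 1 rose, beside the same shares over all genes. Slc29a3, the lysosomal nucleoside carrier ENT3, fell to 5.39 FPKM in Srf KO, against 9.91 FPKM in WT neutrophils, and Slc28a2, a sodium-coupled nucleoside importer, fell to 18.4 FPKM in Srf KO, against 26.7 FPKM in WT neutrophils. Slc29a1, the surface nucleoside carrier ENT1, was not called, at 6.93 FPKM in Srf KO and 4.68 FPKM in WT neutrophils. Slc19a1, the reduced folate carrier, rose to 1.43 FPKM in Srf KO, against 0.720 FPKM in WT neutrophils, with an adjusted p of 0.0406 in the authors' deposited table.

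**Figure D3:**
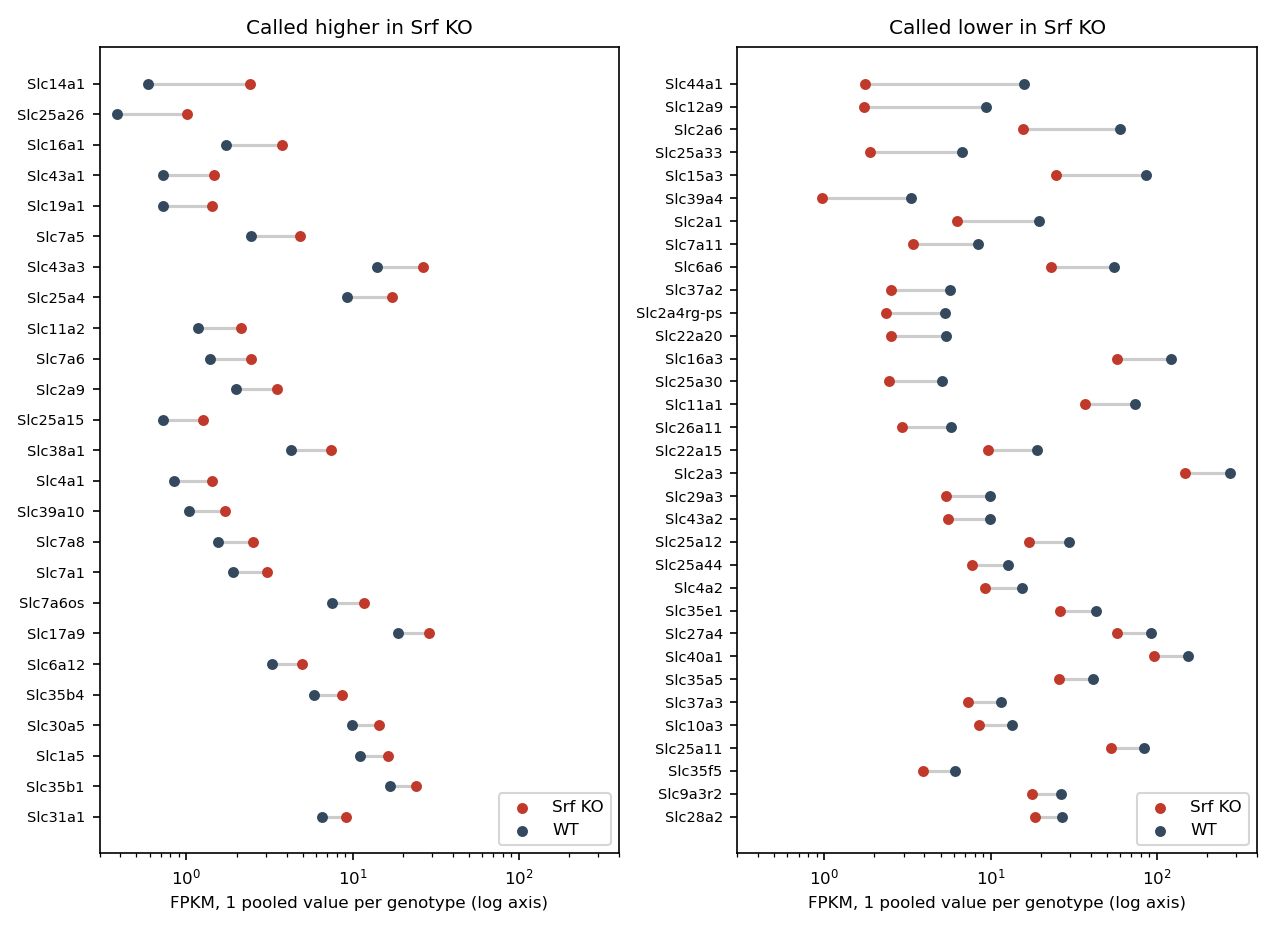
FPKM (log axis, 1 pooled value per genotype) in Srf KO and WT neutrophils of the 25 genes called higher and 33 of the 35 called lower in Srf KO, ordered by fold. The falls reach genes above 100 FPKM in WT such as Slc2a3 (277 FPKM), while no gene called higher passes 28.8 FPKM.

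Some of the genes lie next to each other. Of 11 pairs within 100 kb, both genes were called in 2, Slc43a1 with Slc43a3 and Slc7a6 with Slc7a6os, all higher, where 60 of the 154 genes were called. In the pair Slc6a12 and Slc6a13, 8.98 kb apart, Slc6a12 rose and Slc6a13 was not called at -0.32. Slc38a1 rose and Slc38a2, 44.5 kb away, was not called. Of the 5 carriers on the X chromosome, 1 fell, Slc10a3, and 0 rose. Xist, the transcript of the inactive X chromosome, stood at 4.92 FPKM in Srf KO and 0.0154 FPKM in WT neutrophils. A difference in sex between the samples cannot be told apart from the genotype, in these 5 genes or in any other. Its part in the values was not tested.

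Several genes showed uneven changes between their isoforms or start sites. These values come from the same reads as the gene values and are no separate evidence. The isoform table held 223 isoforms of the 154 genes, and 43 genes had more than 1. Over all tested isoforms at 1 FPKM or more, 16.8% were called lower and 13.3% higher, and over all tested start site groups at that level 18.9% and 14.8%. In Slc44a1 both isoforms fell alike. The first had 0.759 FPKM in Srf KO and 8.11 FPKM in WT neutrophils, and the second had 0.992 FPKM in Srf KO and 7.74 FPKM in WT neutrophils. In Slc16a3 both start site groups fell, by unequal amounts. The stronger group had 52.3 FPKM in Srf KO and 83.9 FPKM in WT neutrophils, a log2 fold of -0.68 ± 0.25 by the authors' deposited table. The weaker group had 5.54 FPKM in Srf KO and 37.2 FPKM in WT neutrophils, a log2 fold of -2.75 ± 0.49 by the authors' deposited table. The difference between the start site groups was not tested. Within the stronger group, 1 isoform was listed at 3.42 FPKM in Srf KO and 43.5 FPKM in WT neutrophils and the other at 48.9 FPKM in Srf KO and 40.4 FPKM in WT neutrophils, both without a test by the authors.

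Calls below the level of the gene appeared in Slc45a4 and Slc35c2, neither of which was called as a gene. In Slc45a4, 1 start site group fell to 1.49 FPKM in Srf KO, against 3.50 FPKM in WT neutrophils (adjusted p = 0.0175 in the authors' deposited table), and the other stood at 2.82 FPKM in Srf KO and 2.68 FPKM in WT neutrophils. In Slc35c2, a gene of the nucleotide sugar family, 1 coding sequence, of 2 isoforms, was listed at 0 in Srf KO and at 23.1 FPKM in WT neutrophils and was called lower, as was the stronger of these isoforms. A different isoform rose to 8.67 FPKM in Srf KO, against 1.46 FPKM in WT neutrophils. Another isoform had 19.2 FPKM in Srf KO and 9.20 FPKM in WT neutrophils and was not called. The 3 tested isoforms share a start site group, which as a whole was not called, at 27.9 FPKM in Srf KO and 30.6 FPKM in WT neutrophils. It was the only carrier gene with isoforms called in both directions.

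**Figure D4:**
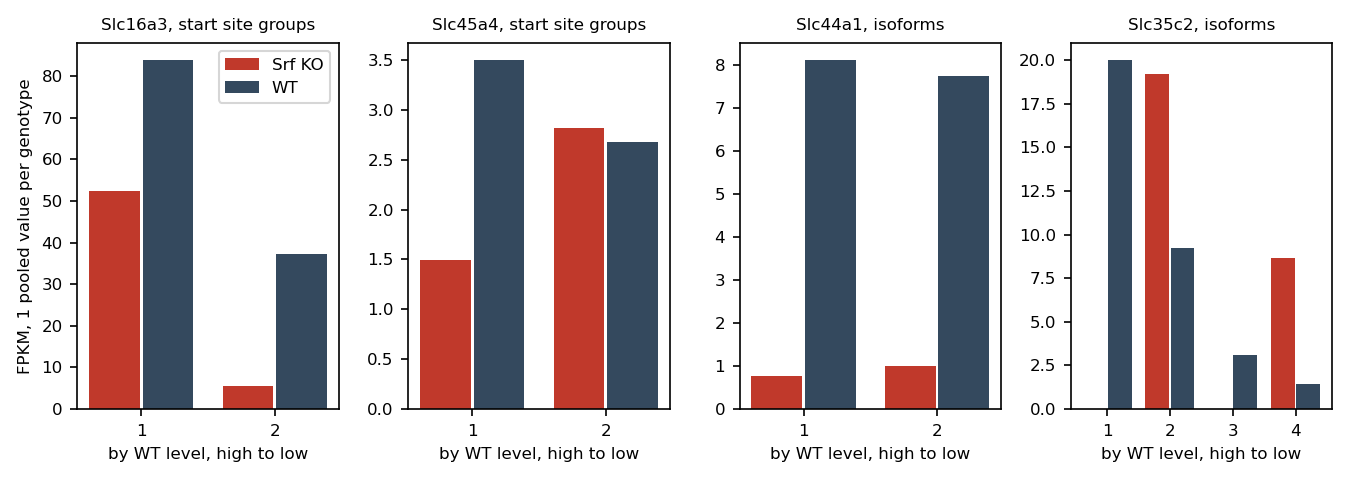
FPKM (1 pooled value per genotype) of the start site groups of Slc16a3 and Slc45a4 and of the isoforms of Slc44a1 and Slc35c2, numbered by WT level, with Srf KO bars left of WT bars. The second Slc16a3 group stands at 5.54 FPKM in Srf KO and 37.2 FPKM in WT, and the first Slc35c2 isoform is listed at 0 in Srf KO.

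Membrane transporters outside the Slc families were counted in the same way. Of 122 such symbols, 61 were tested and reached 1 FPKM, and of these 16 fell (26.2%) and 8 rose (13.1%), with a median log2 fold of -0.14. Over all genes at 1 FPKM or more 20.6% were called lower and 17.1% higher. P-type ATPases, the pumps that set up the ion gradients on which many carriers run, had 6 falls and 2 rises among 13 genes. Atp1b1, a beta subunit of the sodium pump, rose to 14.3 FPKM in Srf KO, against 6.28 FPKM in WT neutrophils. Slco4c1, an organic anion transporter, fell to 5.58 FPKM in Srf KO, against 21.5 FPKM in WT neutrophils. Aqp9, a channel for water and glycerol, fell to 16.7 FPKM in Srf KO, against 47.6 FPKM in WT neutrophils. Among 24 ABC transporters 6 fell and 2 rose, and among 12 Mfsd carriers 1 fell and 1 rose. The subunits of the mitochondrial pyruvate carrier, Brp44l and Brp44, were not called, with log2 folds of 0.15 and 0.31.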

How the data were processed

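Total RNA of 2 Srf KO and 2 WT samples was made into libraries with Illumina's TruSeq kit (RNA, v2) as the labels' protocols state. Reads were handled with TopHat2 2.0.0, Cufflinks 2.0.0 and CASAVA 1.8.1 on mm10, per the submitters' processing notes, which here give no settings. The 4 tables (genes, isoforms, start site groups, coding sequences) have, per the file headers, the columns of Cufflinks' difference test. Expression is in FPKM as the authors deposited it, pooled to 1 value per genotype. The log2 fold is WT over KO in the deposited tables, with placeholders where a group is at 0, and its sign was reversed here. The authors also deposited a test statistic, used here as a score. The p-value and the q-value (adjusted p, over all rows tested) are the authors' own. Per-sample tests had been planned, but pooled values left the authors' test as the main result. Calls use a q-value up to 0.05. Depth is unknown, and p-values may measure technical spread only.

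Standard errors were taken as the size of the log2 fold over that of the statistic, a step that was not itself tested. The centring of folds was tested on simulated data that took these standard errors as given. Members, role groups (by family number) and marker lists were chosen with earlier results of these data known. In each role group, values are given for up to 3 called genes per direction with the largest fold, the gene with the highest FPKM, and the genes next to the FPKM minimum. Srf, Slc16a14, Bsg, Emb, Slc3a2 and Xist are named too, and other genes were named after their values were seen. Some genes that the rule picks are not reported here, though they are in every count. Coordinates and overlaps are on mm10, and strand and biotype come from GENCODE M21, which matched all 154 genes. Start regions are from RefSeq (GRCm38.p6). Alternatives were other thresholds and filters, a pseudocount, centred folds, and the isoform and coding sequence tables. Scripts ran under Python 3.11.15 with matplotlib 3.10.9, scipy 1.17.1, pandas 2.3.3 and numpy 2.4.6.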

Additional observations from a re-analysis of the deposited data

How the results depend on the processing

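The values are pooled, so leaving out each sample in turn was not run. No paired analysis was possible because the tables hold 1 value per genotype and no value per sample. The median log2 fold of the carriers stayed within -0.21 to 0.17 over all alternatives. The 35 falls held within 1.5 times except under a 2-fold minimum, which left 15. The 25 rises were fewer with an FPKM minimum of 5 (10), at an adjusted p of at most 0.01 (11), with a 2-fold minimum (4) and with centred folds (16), and more without an FPKM minimum (39). After centring, 51 of the called genes kept call and direction, 9 lost the call and 3 gained one. Leaving out the non-carrier symbols or the overlapping genes, both added after seeing the data, kept both counts within 1.5 times.

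By group, the counts at an adjusted p of at most 0.01 were 5 rises for amino acids, 1 fall and 0 rises for nucleosides and vitamins, and 0 rises for ion exchange, metals and nucleotide sugars. With a 2-fold minimum, 1 rise was left for amino acids and 1 for mitochondrial carriers, and 0 for ion exchange, metals, nucleosides and vitamins, nucleotide sugars, phosphate carriers and sugars. Under that minimum, falls numbered 2 for mitochondrial carriers, 1 each for ion exchange, lipids, organic ions and phosphate carriers, and 0 for nucleosides and vitamins and nucleotide sugars. With centred folds, rises numbered 1 for metals and 0 for nucleosides and vitamins and for nucleotide sugars, and falls 2 for peptides. The direction depends on the feature read in Slc16a3, whose isoform with the highest mean FPKM, not tested by the authors, had a log2 fold of 0.27. Read from the isoform with the highest mean FPKM, 7 more of the 51 genes checked one by one lost their call, besides Slc16a3. They were Slc16a1 and Slc35e1, whose isoform was not tested, and Slc2a9, Slc10a3, Slc19a1, Slc35b1 and Slc43a1. Centring ended the call of 6, and a pseudocount of 1 moved the fold of 15 by more than its standard error, none past 0. The cause was not tested. Depth is unknown. The median standard error of the carriers was 0.23, and the smallest absolute log2 fold called was 0.49.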

Other observations

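Below the minimum of 1 FPKM, 47 tested solute carrier genes were measured, of which 14 were called higher in Srf KO neutrophils and 1 lower. Over all tested genes at that level 20.7% were called higher and 3.48% lower, and nothing is read from the count. Slc6a4, the serotonin carrier known from platelets and neurons, had 0.437 FPKM in Srf KO and 0.0166 FPKM in WT neutrophils, a log2 fold of 4.72 ± 1.19 by the authors' deposited table. Beside it stand the megakaryocyte and platelet markers, of which 6 of 8 were called higher. Among them Pf4 had 39.2 FPKM in Srf KO and 2.68 FPKM in WT neutrophils. Gp1ba, at 0.877 FPKM in Srf KO and 0.957 FPKM in WT neutrophils, was not called. Neither was Ppbp, at 0.668 FPKM in Srf KO and 0.615 FPKM in WT neutrophils. The part of platelets was not tested. Slc12a2, which encodes the sodium-potassium-chloride cotransporter NKCC1, had 0.649 FPKM in Srf KO and 0.207 FPKM in WT neutrophils. Slc39a8, the zinc and manganese importer ZIP8, had 0.764 FPKM in Srf KO and 0.365 FPKM in WT neutrophils, and Slc1a3, the glutamate carrier EAAT1, had 0.286 FPKM in Srf KO and 0.0854 FPKM in WT neutrophils. Slc32a1, the vesicular GABA carrier, was the gene called lower, at 0.105 FPKM in Srf KO and 0.356 FPKM in WT neutrophils. These genes were named after their values were seen. The 155 untested solute carrier symbols reached at most 0.274 FPKM, and 52 were at 0 in both genotypes.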
